A study of Mus musculus with 10 samples.

Results

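Tight junctions seal the space between neighbouring epithelial cells near their apical surface. This report covers 7 genes of that structure in mouse tongue epithelial cultures, namely the claudins Cldn1, Cldn4, Cldn6 and Cldn7, the MARVEL protein occludin (Ocln), the immunoglobulin-like adhesion molecule F11r (also called JAM-A) and the scaffold Tjp1 (also called ZO-1). The members were chosen by symbol, and all 7 of 7 were found among the 18586 rows of the deposited table. Of these, 6 reached the level needed for a test, and Cldn7 did not.

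Gene expression was measured by poly(A) RNA-seq in 10 libraries of primary tongue epithelial cultures. All libraries carried Krt14-CreERT, LSL-rtTA and tetON_H2B-GFP, so that tamoxifen and doxycycline switched on a nuclear green reporter in cells that express the basal keratin gene Krt14. The 4 N libraries carried nothing more and were all of 1 line, N4172. The 6 EY libraries also carried tetON_E6-E7, which gives the human papillomavirus oncoproteins E6 and E7, and tetON_YAP1S127A, a YAP1 that escapes inhibitory phosphorylation. Each of their 3 lines (EY3960, EY4028 and EY4174) gave 2 libraries. In the study's methods, reporter-positive cells were sorted, returned to culture with doxycycline and expanded. The transgenic mice are described there as adult littermates in groups balanced by age and sex, without an age for each line. Because N was a single line, genotype and line cannot be told apart for N, and libraries of 1 line were not independent animals, so that p-values measure only the spread between these samples.

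As background, claudins are membrane proteins that line up in strands between cells, and their mixture sets how tight the seal is and which ions pass. Cldn1 is a barrier claudin of stratified epithelia, Cldn4 tightens the seal against sodium in many epithelia, Cldn7 is common in simple epithelia, and Cldn6 is best known from embryonic epithelia. Occludin and F11r join the strands as further membrane proteins, and Tjp1 ties claudins, occludin and F11r to the actin cytoskeleton. In stratified epithelia such as tongue, functional tight junctions form in the suprabasal layers, while many of their transcripts are present in basal cells as well.

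Values are TPM, the transcript abundance of a gene scaled to a common sum in each library, which are also scaled by transcript length so that genes can be compared within a library. Sequencing depth behind them is unknown, and no counting interval or detection floor could be given. Differences were tested by limma on log2(TPM + 1), a scale that understates the change of genes with few TPM, and p-values were adjusted by the Benjamini-Hochberg method over 11630 tested genes. A gene was called when its adjusted p was under 0.01 and its log2 difference exceeded 1 in size. Counts at an unadjusted p under 0.05 have no share over all genes beside them, and do not by themselves show a change. Libraries had between 10852 and 11522 genes at 1 TPM or more, and mitochondrial transcripts made up 14.1% to 20.5% of the TPM. The row of mouse Yap1 ranged from 34.7 to 57.1 TPM in EY and from 17.2 to 20.9 TPM in N. The study's transgene-specific primers are for human YAP1, and how far transgene reads enter the mouse row is not given in the sources used here. The labelled epithelial origin was matched by keratinocyte transcripts, with Krt14 at 2517 to 4252 TPM. Of 11 such markers tested, 5 were higher in EY and 0 were called between EY and N by limma (3.55% of all genes). The keratin gene Krt15, however, measured 8.70 to 35.3 TPM in EY and 64.3 to 97.9 TPM in N. It was called lower than N in each EY line by limma (-1.2 in EY3960, -3.1 in EY4028 and -1.4 in EY4174). Summed markers of endothelium, fibroblasts, melanocytes and skeletal muscle reached at most 1.61, 0.748, 3.44 and 0.274 TPM in any library, and none of the taste cell markers was tested. Markers of simple and glandular epithelium, in contrast, summed to 54.1 to 89.6 TPM in N and 150.2 to 450.9 TPM in EY, and are given with the line differences. Of the 9 immune markers listed, 3 had rows, Cd68 made up nearly all of their sum of 29.4 to 71.9 TPM, and the leukocyte marker Ptprc was at 0.347 TPM or less.

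F11r was the most abundant of the 7 transcripts in every line, and Cldn7 the least. By line means in N, the order was F11r, Tjp1, Cldn4, Cldn1, Ocln, Cldn6 and Cldn7. F11r alone made up 73.5% of the summed TPM of the 7 genes in N and 53.3% in EY3960, where Cldn4 moved up to the second rank with 26.8% against 7.11% in N. The middle of the N order was not sharply resolved, since Cldn1 at 1.95 to 7.85 TPM overlapped both Cldn4 at 6.04 to 8.51 TPM and Ocln at 1.67 to 2.39 TPM. In EY4174, Tjp1 at 17.4 and 20.9 TPM lay above Cldn4 at 14.2 and 15.1 TPM, whereas Cldn4 lay above Tjp1 in both libraries of EY3960 and of EY4028.

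**Figure D1:**
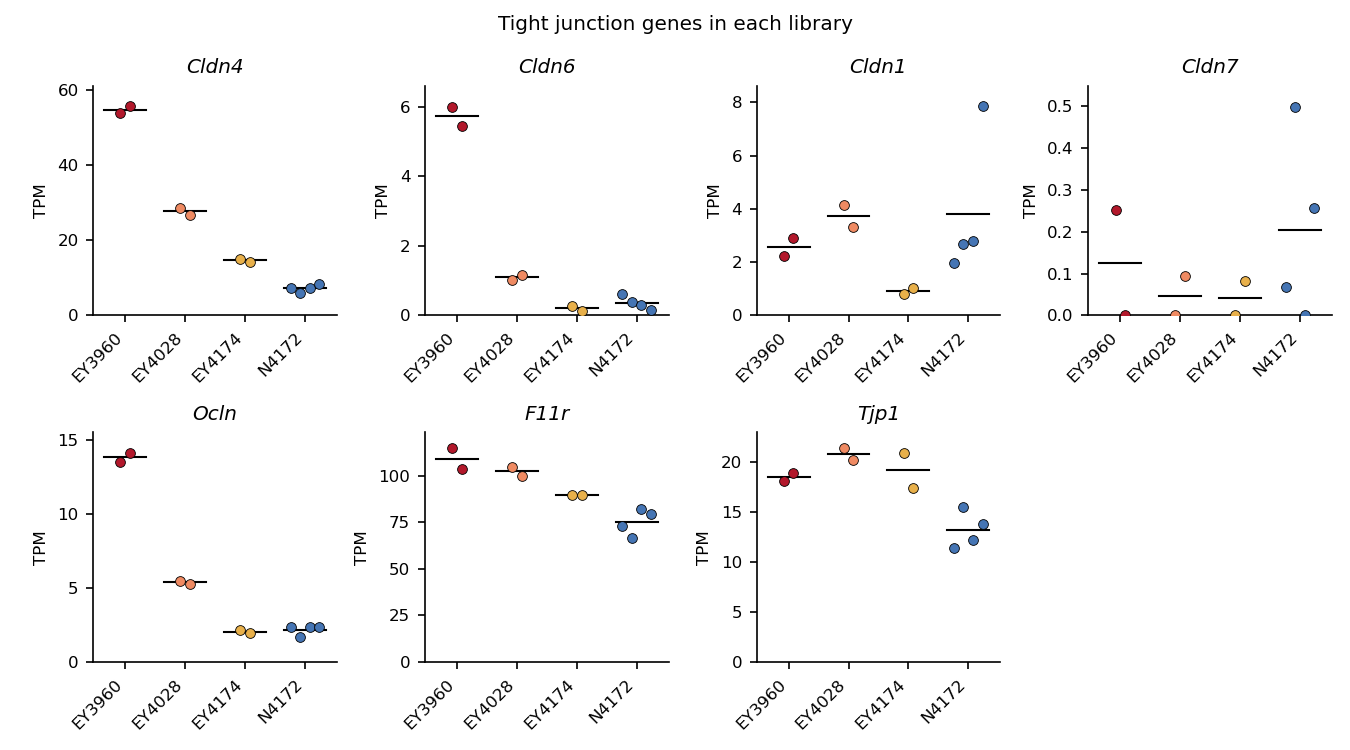
TPM (vertical axis, from 0, a separate scale per gene) of the 7 tight junction genes in each of 10 libraries, grouped by line, with a horizontal bar at the line mean. Cldn4, Ocln and Cldn6 step down from EY3960 to EY4028 to EY4174. Tjp1 and F11r differ by a smaller factor between EY lines, F11r with the same order of means, and lie above N in every EY library.

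Cldn4 was the only one of the 6 tested genes called between EY and N. It measured 54.0 and 55.7 TPM in EY3960, 28.7 and 26.8 TPM in EY4028, and 15.1 and 14.2 TPM in EY4174. In N it measured 7.22, 6.04, 7.30 and 8.51 TPM. Every EY library was therefore above every N library, and the lowest EY line was closer to N than to the highest EY line. The mean was 32.4 ± 18.4 TPM (SD, n = 6) in EY and 7.27 ± 1.01 TPM (SD, n = 4) in N, a ratio of 4.46, and the log2 difference was 1.83 ± 0.39 (SE; limma adjusted p = 0.00795). The call sat close to the threshold, and was lost on leaving out either EY4028 library or any 1 of the N libraries (6 of 10 refits), with adjusted p up to 0.0293, as well as with line as a random block (adjusted p = 0.0414) and from line means (adjusted p = 0.600). When each line was set against N in a model with 4 line means, Cldn4 differed by 2.76 in EY3960 (adjusted p = 5.19e-08), by 1.80 in EY4028 (adjusted p = 2.02e-06) and by 0.93 in EY4174 (adjusted p = 2.84e-04), the last below the fold threshold. These 3 comparisons share the N libraries.

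Occludin had the same order of lines but was level with N in 1 of them. It measured 13.6 and 14.2 TPM in EY3960, 5.50 and 5.27 TPM in EY4028 and 2.14 and 1.93 TPM in EY4174, against 2.35, 1.67, 2.36 and 2.39 TPM in N. Both EY4174 libraries lay inside the N range, while the other EY libraries lay above it. The means of 7.09 ± 5.45 TPM (SD, n = 6) in EY and 2.19 ± 0.350 TPM (SD, n = 4) in N gave a log2 difference of 1.06 ± 0.48 (SE; limma adjusted p = 0.136) that was not called. Against N, Ocln differed by 2.23 in EY3960 (adjusted p = 7.38e-07) and by 1.01 in EY4028 (adjusted p = 3.39e-04), both called. The EY4028 difference was just past the fold threshold, and dropped below it to 0.92 with size factors and to 0.90 with quantile normalization. In EY4174 the difference was -0.06 (adjusted p = 0.753; 95% interval -0.36 to 0.23), with a sign that turned under quantile normalization (0.033).

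Cldn6 exceeded 2 TPM in EY3960 and in no other line. It measured 5.99 and 5.46 TPM in EY3960 and 1.03 and 1.18 TPM in EY4028. It stood at 0.283 and 0.136 TPM in EY4174, beside 0.612, 0.376, 0.301 and 0.147 TPM in N. EY4028 was thus above all N libraries by a small amount, and EY4174 was within or just below their range. The EY against N difference of 0.93 ± 0.52 (SE; limma adjusted p = 0.225) was not called, whereas EY3960 against N was 2.32 (adjusted p = 2.18e-06) and was called. EY4028 differed from N by 0.64 (adjusted p = 0.0127) and EY4174 by -0.16 (adjusted p = 0.487; 95% interval -0.51 to 0.19). Cldn6 was under 1 TPM in 6 of 10 libraries, so that its values in EY4174 and N rest on little signal. It met the filter of 1 TPM in 4 libraries only through EY3960 and EY4028. Its calls, in EY3960 and between lines, are therefore not independent of the filter.

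Cldn1 did not follow these genes. It measured 2.25 and 2.91 TPM in EY3960, 4.16 and 3.32 TPM in EY4028 and 0.822 and 1.03 TPM in EY4174. In N it measured 1.95, 2.67, 2.79 and 7.85 TPM, the last of which stood apart from the other 3. The means were 2.41 ± 1.31 TPM (SD, n = 6) in EY and 3.82 ± 2.71 TPM (SD, n = 4) in N, or 2.47 TPM in N without library 4, and the log2 difference of -0.46 ± 0.36 (SE; limma adjusted p = 0.396) was not called. EY4174 had less Cldn1 than any N library, with a difference of -1.18 (adjusted p = 0.0344) that missed the threshold. The differences of EY3960 (-0.29, adjusted p = 0.593) and EY4028 (0.11, adjusted p = 0.846) had no stable sign, the former turning to 0.046 without N library 4.

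Cldn7 was at most 0.496 TPM in any library and below the level required for a test. It was listed at 0 in 4 libraries, 1 of each line, with 0.251 TPM in the other EY3960 library, 0.0948 TPM in the other EY4028 library and 0.0819 TPM in the other EY4174 library. The other 3 N libraries had 0.0681, 0.496 and 0.256 TPM. The ranges of all 4 lines overlapped.

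F11r and Tjp1 were higher in EY by a modest factor, which varied less between lines than for Cldn4, Ocln and Cldn6. F11r measured 114.8 and 103.4 TPM in EY3960, 104.7 and 99.7 TPM in EY4028, 89.7 and 89.3 TPM in EY4174, and 72.9, 66.3, 82.3 and 79.2 TPM in N. Its mean of 100.3 ± 9.73 TPM (SD, n = 6) in EY against 75.2 ± 7.08 TPM (SD, n = 4) in N gave a log2 difference of 0.41 ± 0.09 (SE; limma adjusted p = 0.00673). Tjp1 measured 18.1 and 18.9 TPM in EY3960, 21.3 and 20.2 TPM in EY4028, 20.9 and 17.4 TPM in EY4174, and 11.3, 15.5, 12.2 and 13.8 TPM in N. Its mean of 19.5 ± 1.57 TPM (SD, n = 6) in EY against 13.2 ± 1.83 TPM (SD, n = 4) in N gave a log2 difference of 0.53 ± 0.10 (SE; limma adjusted p = 0.00298). Both genes had no EY library within the N range and passed the adjusted p threshold, but neither reached the fold threshold. The pass was lost with line as a random block (F11r adjusted p = 0.117, Tjp1 adjusted p = 0.101), with the sample number as a block (0.0231 and 0.0582) and from line means (0.475 and 0.397). Over the 24 alternatives F11r passed in 11 and Tjp1 in 18, and with 1 library left out F11r lost the pass in 7 of 10 refits, without any of N libraries 1 to 3 or either library of EY3960 or EY4028, and Tjp1 in 2, without N library 1 or 3. By line against N, F11r differed by 0.53, 0.44 and 0.25 in EY3960, EY4028 and EY4174 (limma adjusted p = 0.00159, 0.00530 and 0.0637). Tjp1 differed by 0.47, 0.62 and 0.51 in the same order (limma adjusted p = 0.0207, 0.00465 and 0.0141).

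Read against all genes, 1 of 6 members was called between EY and N where 3.55% of the 11630 tested genes were called (413 genes, of which 215, or 1.85% of those tested, were higher in EY). At the adjusted p threshold alone it was 3 of 6 members, all higher, against 11.8% of all genes in either direction and 6.84% higher in EY. That count was 0 of 6 with line as a random block, with the sample number as a block, from line means, without line EY4028, and without N library 1 or N library 3. All EY libraries lay above all N libraries for 3 of 6 members, Cldn4, F11r and Tjp1, and for 11.3% of all genes. The median log2 difference over the 6 members was 0.73, against 0.03 over all genes. Cldn4, Cldn6 and Ocln were called in EY3960 (7.04% of all genes called), Cldn4 and Ocln in EY4028 (5.74%), and 0 of 6 by limma in EY4174 (4.95%). In EY4174, 4 of 6 had an unadjusted p under 0.05, Cldn4, F11r and Tjp1 higher and Cldn1 lower. The share of all genes at that level was not computed, and 15.6% of them passed the adjusted p threshold alone in EY4174.

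**Figure D2:**
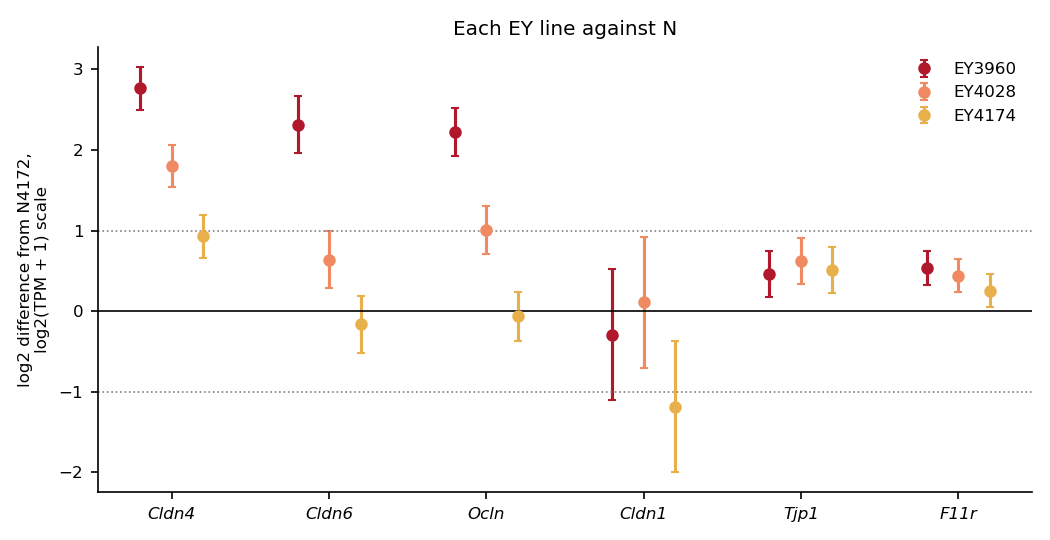
Log2 difference of each EY line from N on the log2(TPM + 1) scale (vertical axis) for the 6 tested genes, with points for the limma estimate, bars for its 95% interval and dotted lines at the fold threshold. Cldn4 lies at 2.76, 1.80 and 0.93 in EY3960, EY4028 and EY4174, Ocln and Cldn6 end near 0 in EY4174, and Tjp1 and F11r stay between 0.25 and 0.62.

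The EY lines differed from one another in Cldn4, Cldn6 and Ocln. By limma's F test over the 3 lines, the largest difference between a pair of lines was 1.84 for Cldn4 (adjusted p = 2.05e-05), 2.48 for Cldn6 (adjusted p = 1.74e-05) and 2.29 for Ocln (adjusted p = 1.01e-05), each between EY3960 and EY4174. Thus 3 of 6 members were called between EY lines, where 5.12% of all genes were called. Of the 3, Cldn6 was tested only because of its level in EY3960 and EY4028, so its call is not separate support. It was also called with no filter on low values (limma F test adjusted p = 3.89e-05). These 3 calls held in each alternative in which the gene was tested, with adjusted p up to 4.95e-04 for Cldn4, 5.98e-04 for Cldn6 and 2.72e-04 for Ocln. F11r, with a largest difference of 0.28 (adjusted p = 0.175), and Tjp1, with -0.16 (adjusted p = 0.675), were not called. Cldn1 differed by up to 1.30 (adjusted p = 0.109) and was called only without N library 4 (adjusted p = 8.50e-04), which is part of the estimate of spread, and with the sample number as a block (adjusted p = 0.00428).

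Of the steps between neighbouring lines, Ocln passed both thresholds at each, with 1.22 between EY3960 and EY4028 (adjusted p = 8.43e-04) and 1.07 between EY4028 and EY4174 (adjusted p = 0.00167), steps at which 1.79% and 2.4% of all genes were called. Cldn6 passed them at the first step with 1.68 (adjusted p = 2.90e-04) but not at the second with 0.80 (adjusted p = 0.0250). Cldn4 passed the adjusted p threshold at both steps with differences of 0.96 (adjusted p = 0.00176) and 0.88 (adjusted p = 0.00269), each slightly under the fold threshold. The means of 4 of 6 members, these 3 and F11r, ran in the order EY3960, EY4028, EY4174, an order that 23.8% of all genes and 41.6% of the 596 genes called between lines also had. In TPM, the EY3960 mean was 7.55 times the N mean for Cldn4, 6.33 times for Ocln and 16.0 times for Cldn6. The EY4174 mean was 2.02 times the N mean for Cldn4, 0.930 times for Ocln and 0.584 times for Cldn6.

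The mouse Yap1 row did not run in the same order. It measured 37.1 and 41.8 TPM in EY3960, 34.7 and 39.0 TPM in EY4028 and 57.1 and 54.9 TPM in EY4174. Among the EY lines, EY4174 thus had the highest value in this row and the lowest Cldn4, Ocln and Cldn6, which says nothing of the level of the transgene itself.

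The promoter sequences of these 3 genes are shown because their transcripts stepped down together across the lines. They are the 250 bases before the transcription start in RefSeq on build GRCm38.p6, on the strand of the gene and matched by symbol, with capitals for a match on either strand to the letters TGANTCA (AP-1) or CAGGTG (an E-box). RefSeq gives 2 starts for Ocln, whose windows overlap. The windows are chr5:134946935-134947184 (minus strand) for Cldn4, chr17:23679115-23679364 (plus strand) for Cldn6, and chr13:100552719-100552968 and chr13:100552499-100552748 (minus strand) for Ocln.
Cldn4: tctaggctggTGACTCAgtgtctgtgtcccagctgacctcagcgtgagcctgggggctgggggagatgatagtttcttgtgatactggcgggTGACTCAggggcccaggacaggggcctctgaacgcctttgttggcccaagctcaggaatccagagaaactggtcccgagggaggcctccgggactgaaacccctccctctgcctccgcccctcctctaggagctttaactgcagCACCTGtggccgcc
Cldn6: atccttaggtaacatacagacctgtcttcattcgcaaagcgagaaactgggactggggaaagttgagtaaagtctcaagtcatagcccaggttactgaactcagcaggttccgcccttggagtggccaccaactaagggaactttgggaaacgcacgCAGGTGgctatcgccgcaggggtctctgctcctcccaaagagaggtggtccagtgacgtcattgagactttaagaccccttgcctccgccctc
Ocln, first start: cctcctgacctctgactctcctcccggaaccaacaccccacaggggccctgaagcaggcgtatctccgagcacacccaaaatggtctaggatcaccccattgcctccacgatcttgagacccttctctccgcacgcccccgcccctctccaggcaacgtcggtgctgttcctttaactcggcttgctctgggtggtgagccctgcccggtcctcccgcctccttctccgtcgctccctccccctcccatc
Ocln, second start: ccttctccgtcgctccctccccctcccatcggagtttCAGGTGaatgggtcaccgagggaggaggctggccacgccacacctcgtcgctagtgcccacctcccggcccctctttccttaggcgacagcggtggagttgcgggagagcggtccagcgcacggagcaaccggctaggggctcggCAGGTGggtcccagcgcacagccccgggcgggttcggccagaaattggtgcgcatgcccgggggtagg

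Cldn4 held 2 AP-1 matches, whose first bases lay 240 and 158 bases before the start, and 1 E-box match 14 bases before it. AP-1 letters were present in 6.75% of 32851 promoters of the same length and E-box letters in 17.2%. Cldn6 held 1 E-box match 93 bases before its start, the first Ocln window held no match, and the second held 2 E-box matches at 213 and 68 bases. Among the other members, F11r held 1 AP-1 match at 109 bases and 1 E-box match at 122 bases, Cldn1 and Tjp1 held none, and of 2 windows of Cldn7 one held GGAATG (TEAD) at 70 bases and the other 2 E-box matches. TEAD letters were in 12.6% of promoters, and AACCNGTT (grainyhead-like), present in 1.79%, was in no window of the 7 genes. No base belonged to more than 1 match, and the matches are letters in these windows and do not show that a factor binds. The genes nearest to Cldn4 that were tested (Limk1, Mettl27, Abhd11 and Stx1a) and those nearest to Ocln (Smn1, Gtf2h2, Marveld2 and Rad17) were not called in either comparison. Near Cldn6, Hcfc1r1, Tnfrsf12a and Pkmyt1 were not called, and Paqr4 was called between the EY lines (adjusted p = 0.00382). The adjusted p threshold alone was passed between EY lines by 8.55% of all genes. Hcfc1r1, Pkmyt1, Gtf2h2 and Marveld2 also passed it (limma F test adjusted p = 0.00307, 0.00424, 0.00785 and 0.00926). The genes nearest to Cldn4, and Tnfrsf12a, Smn1 and Rad17, did not.

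The claudin transcripts as a whole differed in sum and in make-up. Summed over the 11 claudin genes with a row, they came to 85.9 ± 19.6 TPM (SD, n = 6) in EY and 52.1 ± 4.59 TPM (SD, n = 4) in N. Cldn12, a claudin of the group that lacks the usual binding end for Tjp1, was the most abundant claudin in N, at 34.7 to 42.4 TPM. In EY it measured 38.6 to 55.4 TPM and was not called (0.27, adjusted p = 0.0780). Cldn4 made up 13.1% to 15.2% of the claudin sum in the N libraries, 21.1% and 25.0% in EY4174, 31.4% and 32.4% in EY4028 and 50.8% and 51.9% in EY3960, where it was the leading claudin. The Cldn4 to Cldn12 ratio was 0.172 to 0.228 in N and 1.30 and 1.40 in EY3960, and the ratio of Ocln to Tjp1 was 0.108 to 0.207 in N, 0.103 and 0.111 in EY4174 and 0.749 and 0.750 in EY3960.

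**Figure D3:**
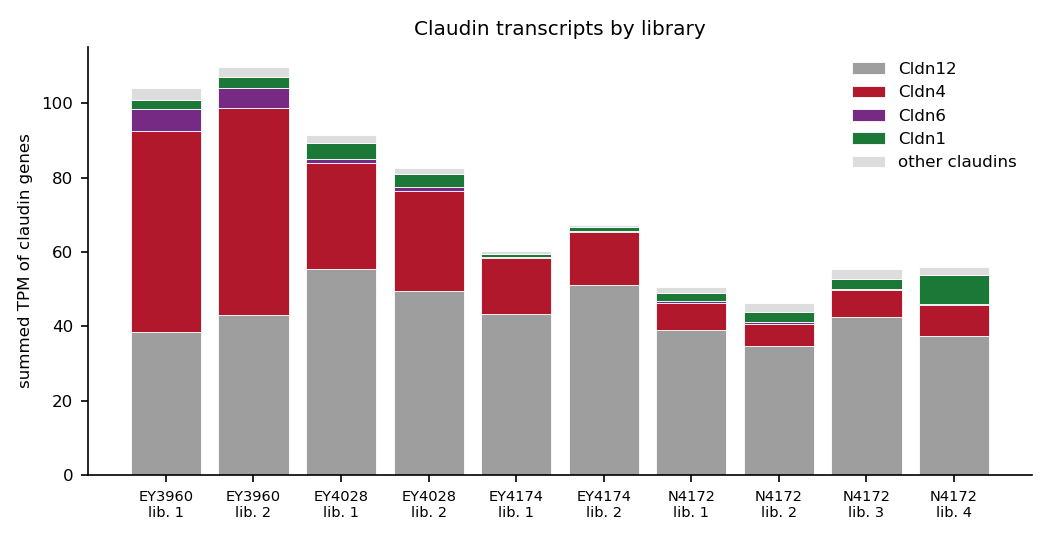
Summed TPM of 11 claudin genes (vertical axis) in each library, stacked by gene, with Cldn12, Cldn4, Cldn6 and Cldn1 shown singly. The bar height falls from 104.0 and 109.7 TPM in EY3960 to between 46.2 and 55.9 TPM in N, mainly through the Cldn4 segment.

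Of the other 26 claudin and claudin-like genes listed, 8 had a row and 2 were tested. These were Cldn12 and Cldnd1, a distant relative that is not a strand-forming claudin and that measured 45.1 to 57.2 TPM in EY and 59.8 to 67.9 TPM in N (-0.27, adjusted p = 0.0265). Neither was called by limma, both at an unadjusted p under 0.05. Cldn8 was at most 0.670 TPM in EY and between 0.549 and 1.36 TPM in N, and Cldn15, Cldn17, Cldn18, Cldn23 and Cldn34c1 were under 1 TPM in every library.

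Among the other membrane proteins of the junction, 5 of 10 listed were tested and 0 were called between EY and N by limma, although 4 of 5 had an unadjusted p under 0.05. The adjusted p threshold was passed by 2, both higher in EY, and by 6.84% of all genes in that direction. Those 2 were the MARVEL protein Marveld3 (0.62, adjusted p = 0.00544) and the tricellular junction receptor Lsr (0.43, adjusted p = 0.00266). Neither passed with line as a random block, where Marveld3 had an adjusted p of 0.126. Marveld2, or tricellulin, which is the gene next to Ocln, measured 5.76 and 6.20 TPM in EY3960, 3.57 and 3.95 TPM in EY4028, 2.36 and 2.69 TPM in EY4174 and 1.46 to 2.48 TPM in N. It had the line order of Ocln, was called against N in EY3960 (1.30, adjusted p = 1.18e-04), and missed the fold threshold between lines (adjusted p = 0.00926). The adhesion molecule Esam was called between lines (1.20, adjusted p = 0.00680), at 2.15 and 2.51 TPM in EY3960 and 0.361 and 0.541 TPM in EY4174.

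The scaffold and polarity genes that were higher in EY were so at similar levels in all 3 lines. Of 11 scaffold and adaptor genes tested, 1 was called (3.55% of all genes), and 3 passed the adjusted p threshold (11.8% of all genes), all higher in EY. The called gene was Cgn (cingulin), which links the junction to myosin, with 6.18 to 9.05 TPM in EY and 2.71 to 2.95 TPM in N (1.21, adjusted p = 2.18e-05). The Tjp1-binding regulator Ybx3 differed by 0.65 (adjusted p = 3.32e-05). Of 11 apical polarity genes tested, 2 were called, both higher, against 3.55% of all genes called and 1.85% called higher in EY. They were Pard6b, a PAR complex subunit, with 8.73 to 11.1 TPM in EY and 2.86 to 4.34 TPM in N (1.27, adjusted p = 1.91e-05), and the angiomotin Amotl2, a junctional binder of YAP, with 16.7 to 28.0 TPM in EY and 6.59 to 8.32 TPM in N (1.44, adjusted p = 4.66e-05). Crb3 (0.80, adjusted p = 8.10e-04) and Prkcz (0.64, adjusted p = 0.00323) passed the adjusted p threshold in the same direction and Lin7c in the opposite one (-0.42, adjusted p = 0.00691). None of these 22 genes was called between EY lines, where 5.12% of all genes were called. With line as a random block, Cgn (adjusted p = 0.00144), Pard6b (adjusted p = 0.00247) and Amotl2 (adjusted p = 0.00175) were still called and Ybx3 (adjusted p = 0.00294) still passed the adjusted p threshold, whereas Crb3, Prkcz and Lin7c did not (adjusted p = 0.0348, 0.101 and 0.127). From line means, a fit with a single value for N, Cgn, Pard6b and Amotl2 were not called and Ybx3 did not pass. As N was a single line, these fits cannot show that the differences hold in other N lines.

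Of 7 tested claudin partners and surface proteases, 0 were called by limma, and the 3 with an unadjusted p under 0.05 also passed the adjusted p threshold (11.8% of all genes). They were the claudin-binding adhesion molecule Epcam (0.82, adjusted p = 6.74e-05), the membrane protease St14 (0.61, adjusted p = 0.00119) and its inhibitor Spint2 (0.55, adjusted p = 0.00339), each higher in EY. With line as a random block Epcam still passed (adjusted p = 0.00560), and St14 and Spint2 did not (adjusted p = 0.0540 and 0.120). Epcam did not pass from line means. Across these lists the median log2 difference was 0.62 for the membrane proteins, 0.29 for the scaffolds, 0.05 for the polarity genes and 0.33 for the claudin partners, beside 0.03 over all genes.

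**Figure D4:**
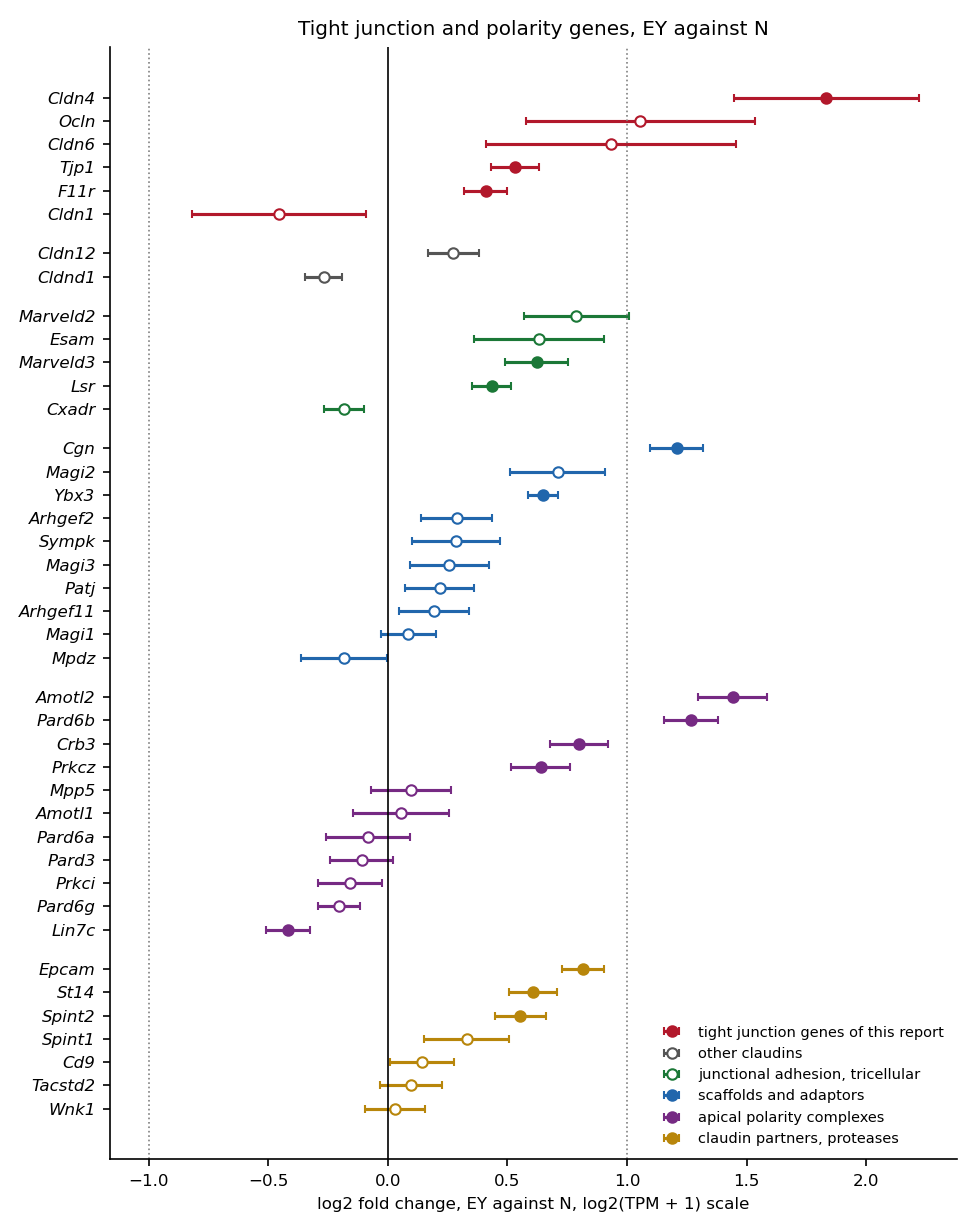
Log2 difference between EY and N on the log2(TPM + 1) scale (horizontal axis) for tested genes of 6 lists, with bars for the standard error, filled points for an adjusted p under 0.01 and dotted lines at the fold threshold. Cldn4, Cgn, Amotl2 and Pard6b are filled and beyond the threshold, while Ocln and Cldn6 have wide bars and open points.

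Of 15 tested transcription factors known to act on junction genes, 3 were called between EY and N and 5 between EY lines. Of all genes, 3.55% and 5.12% were called in these comparisons. Ovol1, which holds epithelial identity, was higher in EY (1.07, adjusted p = 0.00937), as was the mesenchymal factor Twist1 (1.86, adjusted p = 5.18e-04), and Twist2 was lower (-1.32, adjusted p = 0.00990). With line as a random block the Twist1 call held (adjusted p = 0.00603) and those of Ovol1 (adjusted p = 0.0910) and Twist2 (adjusted p = 0.0572) were lost. The Twist1 call was lost with the sample number as a block (limma adjusted p = 0.0231) and from line means. Snai2, a repressor of junction genes, differed by -0.61 (adjusted p = 0.00555), Trp63 by -0.58 (adjusted p = 0.00262) and Klf4 by 0.66 (adjusted p = 0.00339), short of the fold threshold. With line as a random block, Snai2, Trp63 and Klf4 did not pass the adjusted p threshold (limma adjusted p = 0.0769, 0.109 and 0.0806). The grainyhead-like factors Grhl1 and Grhl3, which act on barrier genes, and the epithelial factor Ehf were called between EY lines, with largest differences of 1.30 (adjusted p = 5.20e-04), 1.36 (adjusted p = 0.00266) and 1.71 (adjusted p = 6.60e-04). Grhl1 measured 4.94 and 4.59 TPM in EY3960, 2.61 and 2.84 TPM in EY4028, 1.28 and 1.39 TPM in EY4174 and 1.03 to 1.37 TPM in N, the order of Cldn4 and Ocln. Twist1 and Twist2 were called between lines as well, Twist1 being highest in EY4174 with 5.92 and 6.30 TPM.

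Most suprabasal differentiation genes were also highest in EY3960 among the EY lines. Of 15 tested, 0 were called between EY and N by limma (2 at an unadjusted p under 0.05, both higher), and 7 were called between EY lines (5.12% of all genes). EY3960 had the highest mean of the 3 EY lines for 13 of the 15, a rank it held for 32.7% of all genes. The cornified envelope precursor Sprr1a measured 223.5 and 192.7 TPM in EY3960, 58.0 and 48.4 TPM in EY4028 and 33.6 and 26.4 TPM in EY4174. Krt13, a keratin of suprabasal oral epithelium, measured 72.5 and 66.0 TPM in EY3960 and between 3.55 and 10.4 TPM in the other EY libraries. In N it measured 44.8 to 88.6 TPM, so that EY3960 lay within the N range. EY4028 (-2.65, limma adjusted p = 1.25e-04) and EY4174 (-3.45, limma adjusted p = 2.98e-05) were called lower than N. The part of suprabasal cells in the differences between lines was not tested.

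Markers of simple and glandular epithelium also differed. Their sum was 428.9 and 450.9 TPM in EY3960, 150.2 and 155.4 TPM in EY4028, 170.6 and 204.1 TPM in EY4174 and 54.1 to 89.6 TPM in N, with the highest N value in library 4. Of 10 listed, 8 had a row and 4 were tested, 2 of them called higher in EY (1.85% of all genes) and 2 between EY lines (5.12% of all genes). The simple epithelial keratin Krt19 measured 280.1 and 296.0 TPM in EY3960, 53.6 and 59.8 TPM in EY4028, 101.3 and 134.7 TPM in EY4174 and 3.00 to 16.8 TPM in N (4.33, adjusted p = 0.00174, or 0.0370 with line as a random block). The ion cotransporter Slc12a2 measured 20.8 to 34.9 TPM in EY and 7.42 to 7.68 TPM in N (1.69, adjusted p = 1.02e-05). Krt18 had the line order of Cldn4, at 124.0 and 128.5 TPM in EY3960, 60.0 and 60.4 TPM in EY4028, 44.4 and 46.4 TPM in EY4174 and 40.9 to 63.5 TPM in N, and was called between EY lines (adjusted p = 4.52e-04). Its partner Krt8, at 1.70 TPM or less in every library and called between lines (adjusted p = 0.00606), was lowest in EY3960, and the glandular genes Aqp5 and Cftr were at most 0.908 and 0.151 TPM. The simple epithelial keratin Krt7, too low to be tested, went the other way, at 0.170 to 0.339 TPM in EY and 0.593 to 1.84 TPM in N. Cftr was also lower in EY by mean, at 0.0260 TPM against 0.115 TPM in N. The part of such cells in the junction differences was not tested.

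N library 4 differed from the other N libraries in suprabasal transcripts. It had the highest value of the 4 N libraries for 14 of the 15 suprabasal genes and for 3 of 6 members, Cldn1, Cldn4 and Ocln, a rank it held for 35.3% of all genes. It was over 2 times the next N library for 7 of the 15 (2.05% of all genes) and for 1 member, Cldn1. Its Sprr1a was 195.0 TPM against 15.8 to 19.2 TPM in the other N libraries, and its Cnfn, a cornified envelope protein, was 42.6 TPM against 0.813 to 1.53 TPM. Sprr1b was 142.1 TPM against 43.5 to 49.4 TPM in the other N libraries and 582.5 and 628.4 TPM in EY3960, so that suprabasal genes differed in how near this library came to EY3960. Its Cldn4 of 8.51 TPM and Ocln of 2.39 TPM were above the other N libraries, its Cldn6 of 0.147 TPM was the lowest of N, and its Cldn1 of 7.85 TPM was the highest of all libraries. Without this library, Cldn4 differed between EY and N by 1.90 (adjusted p = 0.0157).

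**Figure D5:**
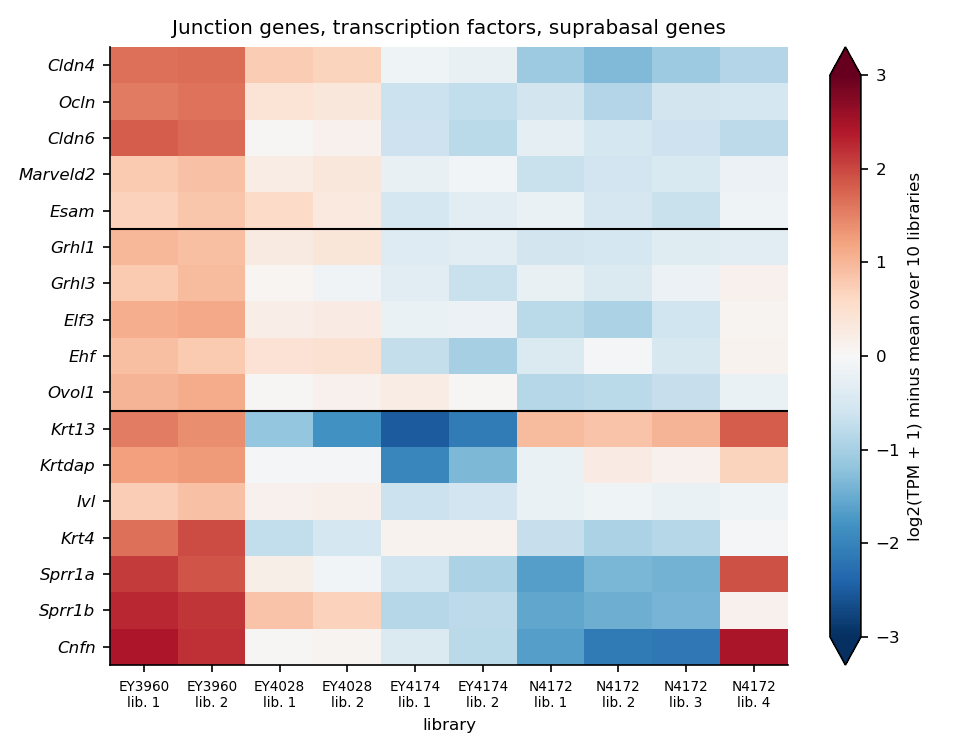
Log2(TPM + 1) minus the gene's mean over the 10 libraries (colour, cut at 3 in either direction) for 5 junction genes (top), 5 transcription factors (middle) and 7 suprabasal genes (bottom), with 1 column per library. The rows are a selection from the lists. In them, EY3960 is high in all 3 blocks, and N library 4 differs from the other N libraries most in Sprr1a and Cnfn. Over the full lists, EY3960 had the highest mean of the EY lines for 7 of 15 tested factors and 13 of 15 suprabasal genes. Of factors not shown, Twist1 was highest in EY4174, and Twist2 was highest in EY3960 among the EY lines.

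Across the 10 libraries, which share lines, the Pearson correlation of log2(TPM + 1) was 0.93 between Cldn4 and Ocln, 0.97 between Cldn6 and Ocln, 0.94 between Cldn4 and F11r and -0.02 between Cldn4 and Cldn1. Among genes with a mean of at least 5 TPM, those most like Cldn4 were Plau (r = 0.993), the urokinase gene, Hsd17b12 (r = 0.988) and Bcl2l15 (r = 0.988). Plau had line means of 185.8, 102.7 and 56.0 TPM in EY3960, EY4028 and EY4174 and 39.9 TPM in N. Those most like Ocln were Prl2c3 (r = 0.987), Nvl (r = 0.985) and Fam83d (r = 0.984), and those most like Cldn6 were Spint1 (r = 0.984), Eif2s2 (r = 0.983) and Oser1 (r = 0.978). Spint1 encodes an inhibitor of the surface protease St14. These likenesses describe 4 line means more than 10 separate points.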

How the data were processed

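Poly(A) RNA-seq of 6 EY and 4 N libraries was used. The authors deposited 1 table of TPM by gene symbol, with depth unknown. The submitters' processing notes name STAR 2.7.9, SAMtools 1.7, HTSeq 0.13.5, DESeq2 1.34.0 and build GRCm39. The methods also describe TPM from a pseudoaligner run against a human transcriptome, and which step made this table is not given in the sources used here.

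Groups were lines as titled. The members, gene lists and tests were chosen with earlier results of these data known. The study's count model could not be used on TPM, but its thresholds (adjusted p 0.01, log2 difference 1) were kept. Genes that reached 1 TPM in 4 or more libraries were fitted by limma 3.58.1 (R 4.3.3, trend and robust options) on log2(TPM + 1), with EY against N, and with 4 line means for lines. The script was tested on simulated data. Named genes were all members, a selection of the called genes of the lists, other claudins over 1 TPM and a few abundant list genes. An unnamed list gene may thus have been called. A list of embryonic genes is left out, of which 1 of 3 tested was called between EY and N (3.55% of all genes). Also named were the 3 genes most correlated with each called member and its 2 nearest tested genes on each side, in RefSeq order. Motifs were searched in RefSeq promoters (GRCm38.p6). Protein features were not analysed here. Alternatives covered the pseudocount, filter, scaling, moderation, blocks, and libraries or lines left out. A listed gene is not reported here.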

Additional observations from a re-analysis of the deposited data

Results flagged for a closer look

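Cldn4, Cldn6 and Ocln differed between EY lines under the same contrast with N. The largest difference between a pair of lines was 1.84 for Cldn4 (limma F test, adjusted p = 2.05e-05), 2.48 for Cldn6 (adjusted p = 1.74e-05) and 2.29 for Ocln (adjusted p = 1.01e-05), and in each gene both libraries of EY3960 were above both of EY4174.

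N library 4 stood apart from the other N libraries in Cldn1, at 7.85 TPM against 1.95 to 2.79 TPM. N library 2 stood apart in Ocln, at 1.67 TPM against 2.35 to 2.39 TPM, a gap of under 1 TPM. Of 14 groups examined for a library far from the rest, 0.7 would be expected by chance if libraries and genes were independent. Libraries of 1 line were not, so 0.7 is not the expectation for this design.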

How the results depend on the processing

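The 3 calls between EY lines (Cldn4, Cldn6 and Ocln) and the calls of the same genes in EY3960 against N held in every alternative in which they were tested, and Cldn6 was below the filter, and so not tested, with size factors and when 1 TPM was required in every library, which left 2 members called between lines and 2 in EY3960. Comparisons of lines have no value with line as a random block, from line means or without a line. The call of Cldn4 between EY and N held in 13 of 24 alternatives, with a difference of 1.37 to 2.28 and adjusted p from 1.92e-04 to 0.600. The number of members called between EY and N, 1 as reported, was 0 with pseudocount 5, in the fit with a replicate block for sample number, with line as a random block, from line means and without line EY4028, and 2 without line EY4174, where Ocln was called (1.62, adjusted p = 0.00416). Leaving out 1 library gave 0 to 1. In EY4028, 2 members were called as reported and 1 with pseudocount 5, size factors or quantile normalization, and 1 to 2 with 1 library left out. In EY4174, 0 became 1 (Cldn4) with pseudocount 0.1 (1.01) and with the replicate block (1.04).

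Of all genes, 413 were called between EY and N as reported, 203 with line as a random block, 221 with the replicate block, 147 with pseudocount 5, 216 when 1 TPM was required in every library and 2 from line means. With pseudocount 5, 300 were called between lines, 336 in EY3960, 282 in EY4028 and 223 in EY4174, and with 1 TPM in every library 350, 455, 371 and 317. Of the EY4028 calls, 62.0% were higher, or 51.4% after quantile normalization.

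Sample numbers were not treated as pairs in the main fit. Deviations of same-numbered libraries of 2 lines correlated by -0.15 to 0.10. With 2 libraries per EY line these deviations mirror each other, so this check cannot exclude that libraries were prepared in sets. With the replicate block, Cldn4 differed between EY and N by 1.94 (adjusted p = 0.0883). Sample numbers 3 and 4 occur only in N, so in that fit only N libraries 1 and 2 enter the difference between EY and N. Signs turned only for differences that were not called. Cldn1 in EY4028 became -0.019 with quantile normalization and -0.017 without EY4028 library 1, and ran from -0.077 (without N library 1) to 0.45 (without N library 4) over refits without 1 library. Cldn1 in EY3960 became 0.11 with the replicate block, and ran from -0.48 (without N library 1) to 0.046 (without N library 4). Ocln in EY4174 became 0.033 with quantile normalization and 0.023 with the replicate block. The causes were not tested. With 1 N line and unknown depth, neither the spread between N animals nor values under 1 TPM could be judged.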
